A study of Mus musculus with 8 samples.

Results

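Paneth cells sit at the base of the small intestinal crypts and release antimicrobial granules into the gut lumen. The transcripts described here encode those granule products: every row of the deposited gene table whose name begins with Defa, for the alpha defensins (cryptdins), together with Lyz1, Mmp7, Ang4, Itln1 and Pla2g2a. The rule gave 44 rows of 54139, made up of 39 Defa rows and 5 others. Of the 39 Defa rows, 22 were protein coding and 17 were pseudogene rows (Defa-ps). All 39 lay on mouse chromosome 8, and those with any count spanned 21025545 to 21735471.

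RNA was sequenced from mouse intestinal epithelial cells in 4 cKO libraries, with the genotype Rictor Flox; Villin-Cre, and 4 WT libraries, with the genotype Villin-Cre. Villin-Cre drives Cre recombinase in the intestinal epithelium and was carried by both groups. Rictor is the defining subunit of mTOR complex 2. Age, sex, intestinal segment, the number of floxed alleles and the number of mice behind each library were not given in the sources used here. Each p-value below therefore measures the spread between these libraries, which may be technical.

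Alpha defensins are made as inactive precursors, and in mice the protease matrilysin (Mmp7) cuts them into active peptides that damage bacterial membranes. Lyz1 is the lysozyme of Paneth cells and cleaves bacterial cell walls, Ang4 is an angiogenin-family ribonuclease with antibacterial activity, Itln1 is a lectin that binds microbial sugars, and Pla2g2a is a secreted phospholipase that attacks bacterial membranes. Wnt signals drive Paneth cell maturation in the crypt, and TCF factors carry that signal to DNA.

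Total counts per library ran from 15110451 to 18351748 in cKO and from 15982538 to 18708335 in WT. Rictor, the targeted gene, had 20.8 to 40.6 CPM (counts scaled to the library total) in cKO and 41.7 to 57.3 CPM in WT. The groups did not overlap, and the fold was 0.681, with a 95% interval of 0.501 to 0.926. In edgeR the Rictor p was 0.0190 before adjustment and 0.921 after it. These counts cover the whole gene and not the floxed part alone. All 8 Paneth markers were found in every library, with summed levels of 18351 to 28436 CPM in cKO and 19532 to 30699 CPM in WT. At an edgeR adjusted p under 0.05, 0 of the 8 were called, against 0.0136% of all genes. Apart from Mptx2, these markers are themselves among the 44 rows. The colon marker Car1 had no count in any library. Library 3 of each genotype was taken to stand apart from earlier results that are not shown here. Values without both are given beside several members. Among the 27 tested Defa rows, cKO library 3 was the highest for 5 and the lowest for 3, and WT library 3 was neither for any.

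The promoters of the genes on which the results turn are printed from RefSeq on mouse build GRCm38.p6, as the 250 bases before each gene's start, 5′ to 3′ on the strand of the gene. RefSeq promoters, in 21 windows, were found for 20 genes, 16 of them alpha defensins by their RefSeq names. Of these 16, 4 (Defa38, Defa41, Defa42 and Defa43) are listed in the gene table under other names and are not among the 44 rows. Defa20 and Defa32 are shown because the split of counts between these near-identical rows differed between libraries, Defa35 because its 2 groups of libraries did not overlap, and Ang4 and Lyz1 because they had the lowest point estimates of the 5 members outside the defensin cluster. Capitals mark the TCF letters CTTTGAT, here always on the opposite strand as ATCAAAG, or in Ang4 the AP-1 letters TGACTCA. The windows are chr8:21509008-21509257 (plus strand) for Defa20, chr8:21528780-21529029 (plus) for Defa32, chr8:21064788-21065037 (plus) for Defa35, chr14:51773591-51773840 (minus) for Ang4 and chr10:117292869-117293118 (minus) for Lyz1.
Defa20: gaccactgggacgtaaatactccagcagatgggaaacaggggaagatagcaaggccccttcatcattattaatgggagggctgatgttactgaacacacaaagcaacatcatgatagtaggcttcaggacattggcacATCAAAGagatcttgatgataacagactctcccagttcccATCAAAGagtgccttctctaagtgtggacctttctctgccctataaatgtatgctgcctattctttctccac
Defa32: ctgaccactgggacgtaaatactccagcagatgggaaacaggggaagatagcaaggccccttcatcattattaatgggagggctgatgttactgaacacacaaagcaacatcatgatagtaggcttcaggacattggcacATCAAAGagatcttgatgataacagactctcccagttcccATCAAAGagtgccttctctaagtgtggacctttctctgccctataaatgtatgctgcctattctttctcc
Defa35: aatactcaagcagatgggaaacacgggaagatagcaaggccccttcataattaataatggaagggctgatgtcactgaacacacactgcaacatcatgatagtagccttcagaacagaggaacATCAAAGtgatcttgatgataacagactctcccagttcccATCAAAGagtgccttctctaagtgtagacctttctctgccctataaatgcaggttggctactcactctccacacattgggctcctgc
Ang4: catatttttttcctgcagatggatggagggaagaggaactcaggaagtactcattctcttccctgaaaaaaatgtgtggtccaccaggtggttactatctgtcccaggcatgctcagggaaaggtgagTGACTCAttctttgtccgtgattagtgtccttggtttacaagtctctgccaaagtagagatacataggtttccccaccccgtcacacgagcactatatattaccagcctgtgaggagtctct
Lyz1: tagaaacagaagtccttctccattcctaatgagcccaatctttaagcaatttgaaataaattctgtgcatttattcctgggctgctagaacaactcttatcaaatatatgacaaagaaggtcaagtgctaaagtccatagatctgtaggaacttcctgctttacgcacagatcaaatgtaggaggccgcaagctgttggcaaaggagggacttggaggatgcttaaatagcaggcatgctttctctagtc
The Defa20 and Defa32 windows shared a run of 248 of 250 bases.

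The letters CTTTGAT, searched on both strands, were present in 13 of the 16 alpha defensin promoters and in 3.21% of all 32851 RefSeq promoters of the same length. In 9 of the 13 there were 2 copies, spaced 40 bases apart in every one. The copies began between 70 and 155 bases before the gene start. Defa38, Defa42 and Defa43 had none. These promoters are near-copies of one another (Defa2 and Defa20, Defa21 and Defa22, and Defa36 and Defa37 were identical over 250 bases), so the 13 are not independent. Among the other 4 genes, Lyz1, Ang4 and Itln1 had none. Mmp7 had none in the window before its listed start. It had the letters once in a second RefSeq window (chr9:7692091-7692340), which lies inside the gene as the gene table places it. The second TCF form, CTTTGAA, was in 0 of the 21 windows and 4.46% of all promoters. The FOXO letters GTAAACA were in 0 of 21 windows and 3.17% of all promoters. The AP-1 letters TGACTCA were in 2 of 21, those of Ang4 and Mmp7, and in 4.46% of all promoters.

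**Figure D1:**
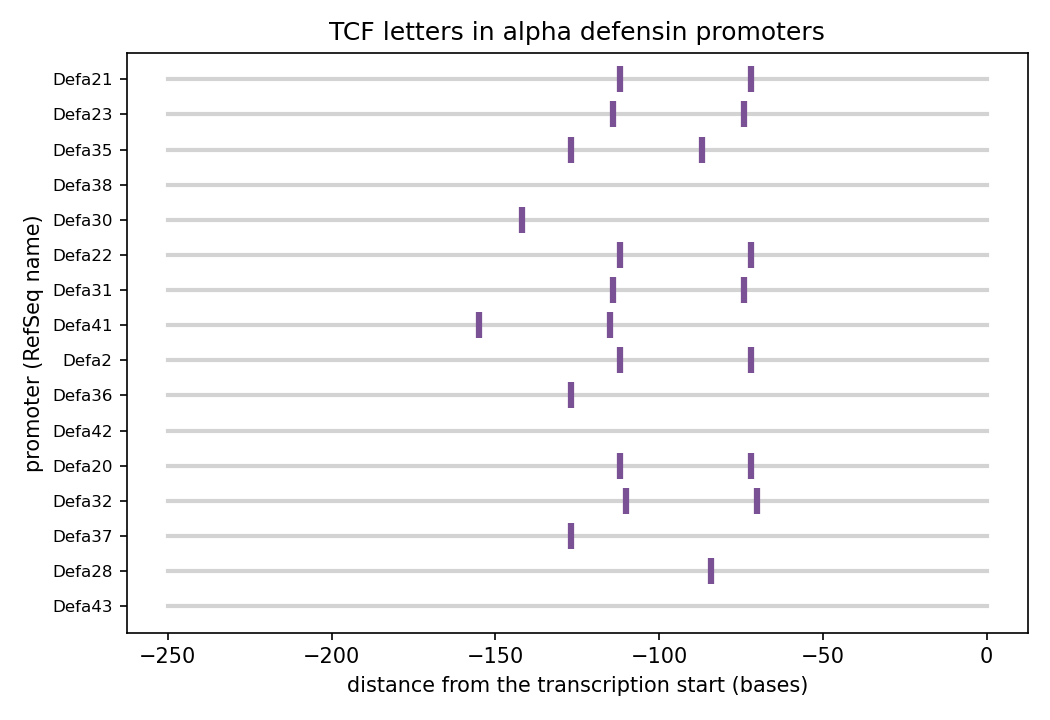
Position of the letters CTTTGAT (either strand) in RefSeq promoters of alpha defensin genes, as distance in bases from the transcription start. In 9 promoters there are 2 copies spaced 40 bases apart, and all copies begin 70 to 155 bases before the start.

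Of the 44 rows, 6 pseudogene rows had no count in any library and 6 more rows had at most 10 counts in any library. The remaining 32, 27 of them Defa rows, were abundant enough for the edgeR fit across 14701 genes. At an edgeR adjusted p under 0.05, 0 of the 32 were called, where the share of all genes called was 0.0136% (0.0068% higher and 0.0068% lower in cKO). The adjusted p-values of the 32 ran from 0.630 to 0.987. At an unadjusted p under 0.05 there were 5 of the 32, or 15.6%, against 3.9% of all genes. Of these 5, 3 had higher point estimates in cKO (Defa35, Defa37 and Defa34), against 1.83% of all genes, and 2 had lower ones (Ang4 and Lyz1), against 2.07%. Several of the 32 share sequence and so are not separate measurements. DESeq2 called 1 member, Defa35, against 0.267% of all genes. The 32 had 21 higher (65.6%) and 11 lower point estimates, with a median log2 fold change of 0.19. Of all genes, 50.5% had higher point estimates, with a median of 0.0022.

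**Figure D2:**
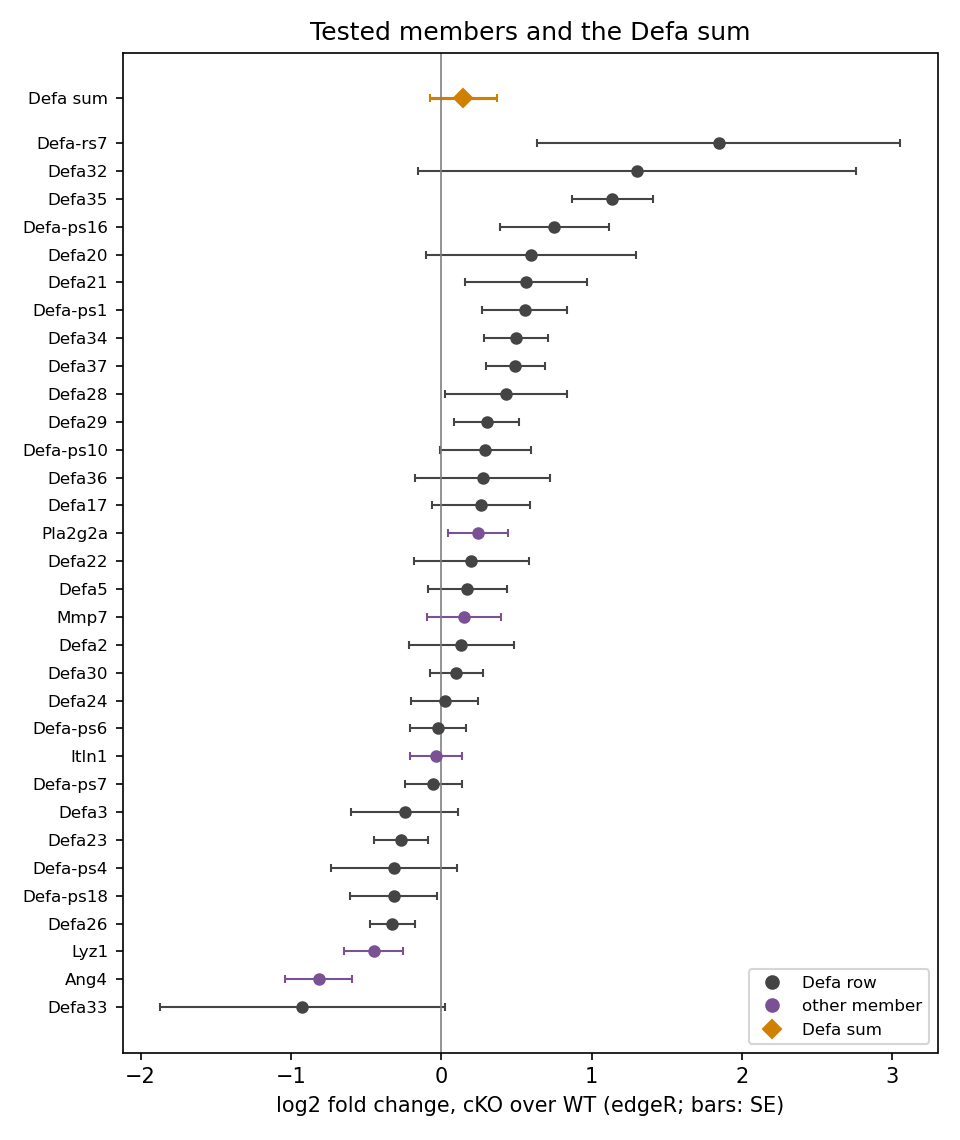
Log2 fold change of cKO over WT for each tested member and for the sum of all Defa rows, with bars of 1 standard error. Defa35 lies above 1 with a short bar, Ang4 and Lyz1 are among those below 0, and Defa32 and Defa-rs7 have the widest bars.

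Defensin rows share sequence, so the 39 Defa rows were also summed, which removes the effect of how reads were divided among them. The Defa sum was 13323, 20052, 13761 and 10614 CPM in cKO libraries 1 to 4, against 15702, 14452, 12830.1 and 9178 CPM in WT libraries 1 to 4. It was highest in cKO library 2 and lowest in WT library 4, and the groups overlapped over most of their range. The sum averaged 14438 ± 3994 CPM in cKO and 13040.4 ± 2831 CPM in WT (SD, n = 4 each). The log2 fold change was 0.15 ± 0.22 (SE), with a 95% interval of -0.34 to 0.64, or a fold of 0.788 to 1.56. By edgeR the adjusted p was 0.930, and an exact permutation over libraries (two-sided) gave 0.629. Without cKO library 2 the log2 fold change was -0.045. In bulk libraries a level reflects both the number of Paneth cells and the defensin RNA per cell, which cannot be told apart.

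The Defa rows took a large share of each library. They held 1.29%, 2.09%, 1.33% and 1.09% of all counts in cKO libraries 1 to 4 and 1.58%, 1.46%, 1.21% and 0.939% in WT libraries 1 to 4. Exact 95% binomial intervals, which cover counting error only, reached at most 0.00696 percentage points from these shares, so the spread between libraries is far above counting error. Among the 27 tested Defa rows, cKO library 2 was the highest library for 15 and WT library 4 the lowest for 16.

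RefSeq gives Defa names to 6 further rows that the gene table lists under other names, by their position on GRCm38: AY761184 (Defa39), Gm14851 (Defa38), Gm7849 (Defa42), Gm15292 (Defa40), Gm7861 (Defa43) and Gm15293 (Defa41). With them the sum was 18602 ± 4892 CPM in cKO and 17481 ± 3584 CPM in WT (SD, n = 4 each), again overlapping, and on the log2 scale cKO over WT was 0.090 (edgeR adjusted p = 0.958). These rows share sequence with the 39, with 45.0% of the 50-base windows and 17.9% of the 100-base windows of Gm14851 also in Defa29. AY761184 had 1379, 2233, 2345 and 1588 CPM in cKO libraries 1 to 4, against 2526, 2039, 1928 and 1664 CPM in WT libraries 1 to 4. Gm15292 had a log2 fold change of -0.48 ± 0.18 (SE; edgeR adjusted p = 0.921, unadjusted 0.0208), the lowest of the 6 after Gm7861, and its groups overlapped. The other 4 lay between -0.16 and 0.032.

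**Figure D3:**
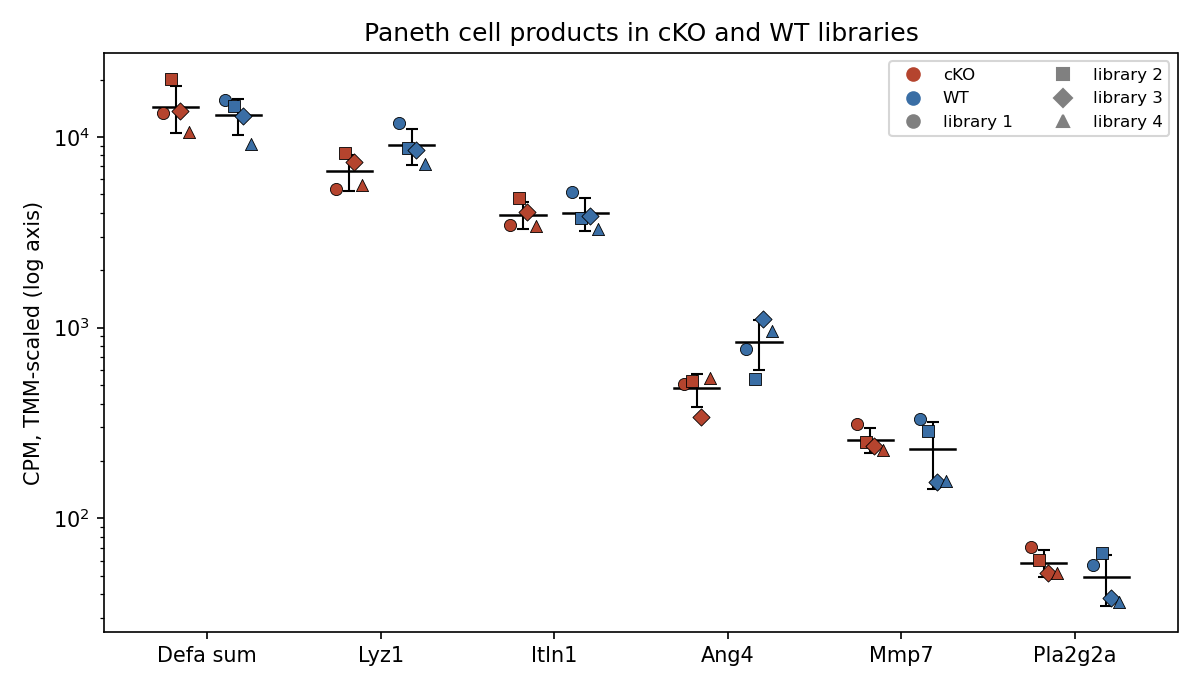
CPM on a log axis of the Defa sum and the 5 other members in each cKO and WT library (points; cKO left), with the mean and SD as bars. The groups overlap for every product drawn, least for Ang4, where 3 of 4 cKO values lie below all WT values.

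On the FPKM scale, which divides by length, Defa24 had the highest mean level of the 39 Defa rows, followed by Defa30, Defa21, Defa22, Defa17 and Defa29. Lyz1 (5203 ± 1098 FPKM in cKO and 7109 ± 1534 FPKM in WT) and Itln1 (3392 ± 542 FPKM in cKO and 3473 ± 690.3 FPKM in WT; SD, n = 4 each) had higher means than Defa21, as did Gm14851 and AY761184. Defa24 (ENSMUSG00000064213, chr8:21734494-21735471, plus strand) averaged 15451 ± 4499 FPKM in cKO and 15229.7 ± 3441 FPKM in WT (SD, n = 4 each). Its CPM values were 6229.5, 9352, 5702 and 4938 in cKO libraries 1 to 4 and 8004, 7249, 5794 and 4756 in WT libraries 1 to 4. This was a log2 fold change of 0.023 ± 0.22 (SE; edgeR adjusted p = 0.987), with a 95% interval of -0.47 to 0.52. Defa24 held 46.8%, 46.6%, 41.4% and 46.5% of the Defa counts in cKO libraries 1 to 4 and 51.0%, 50.2%, 45.2% and 51.8% in WT libraries 1 to 4. Exact 95% intervals reached at most 0.253 percentage points from these shares, and the ranges overlapped.

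Defa30 (ENSMUSG00000074444, chr8:21134642-21135598, plus strand) had 2697, 3741, 2617 and 2589 CPM in cKO libraries 1 to 4, against 3326, 2976, 2358 and 2198 CPM in WT libraries 1 to 4. This was a log2 fold change of 0.10 ± 0.18 (SE; edgeR adjusted p = 0.944). Defa21 (ENSMUSG00000074447, chr8:21025545-21026516, plus strand) had 958, 1507, 1815 and 619.5 CPM in cKO libraries 1 to 4 and 922, 958, 1074 and 358 CPM in WT libraries 1 to 4. For Defa21 this gave 0.57 ± 0.40 (SE; edgeR adjusted p = 0.921). Libraries of both groups spread by more than the difference between them.

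Defa22 (ENSMUSG00000074443, chr8:21162277-21163249, plus strand) had 1169.6, 1772, 738 and 647 CPM in cKO libraries 1 to 4, against 1118, 1027, 1172 and 448 CPM in WT libraries 1 to 4 (log2 fold change 0.20 ± 0.38, SE; edgeR adjusted p = 0.947). Defa17 (ENSMUSG00000060208, chr8:21655780-21656735, plus strand) had 228, 579, 283 and 211 CPM in cKO and 290.2, 203, 354 and 234 CPM in WT (0.27 ± 0.33; edgeR adjusted p = 0.924). Defa29 (ENSMUSG00000074437, chr8:21325887-21327020, minus strand) had 303, 472, 404 and 294 CPM in cKO and 350.4, 358, 294 and 191 CPM in WT (0.30 ± 0.21; edgeR adjusted p = 0.921). In each of these 3 rows cKO library 2 was the highest of all, and the other libraries of the groups overlapped. Without that library the log2 fold change was -0.14 for Defa22, -0.16 for Defa17 and 0.17 for Defa29. Without both libraries 3 it was 0.47 for Defa22, 0.48 for Defa17 and 0.25 for Defa29.

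Defa35 (ENSMUSG00000061845, chr8:21065038-21065996, plus strand) was the one tested member whose cKO and WT libraries did not overlap. Its values were 30.6, 20.5, 47.8 and 27.8 CPM in cKO libraries 1 to 4, against 13.9, 20.1, 13.0 and 10.4 CPM in WT libraries 1 to 4. The means were 31.7 ± 11.5 CPM in cKO and 14.4 ± 4.09 CPM in WT (SD, n = 4 each), a log2 fold change of 1.14 ± 0.27 (SE). The fold was 2.20, with a 95% interval of 1.46 to 3.32. The edgeR p was 0.00154 before adjustment and 0.630 after it, by DESeq2 the adjusted p was 0.0153. An exact permutation over libraries (two-sided) gave p = 0.0286, the lowest value possible with 4 libraries a group.

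A single non-overlapping member is 1 of 32, and 3.21% of all genes had non-overlapping groups (1.41% higher and 1.8% lower in cKO). The nearest libraries, cKO library 2 with 347 counts and WT library 2 with 363, gave a CPM ratio of 1.02 (95% counting interval 0.879 to 1.19), so they were not separable at this depth. Without cKO library 3 the log2 fold change was 0.87, and without both libraries 3 it was 0.83. Defa35 shares 59.9% of its 50-base transcript windows with other genes, 53.3% with Defa37. Of its 100-base windows it shares 23.4% with other genes, 20.4% with Defa37. Its 250-base promoter differs from those of Defa36 and Defa37 at 5 bases. The treatment of reads with several matches was not given in the sources used here.

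Defa37, whose 50-base windows all occur in Defa36, had 203, 195, 354 and 272 CPM in cKO libraries 1 to 4 and 149, 168, 188 and 223 CPM in WT libraries 1 to 4, with a log2 fold change of 0.49 ± 0.20 (SE; edgeR adjusted p = 0.921, unadjusted 0.0297). Summed with Defa36, the values were 341, 544, 544 and 373 CPM in cKO and 363, 365, 347 and 295 CPM in WT (0.39 ± 0.17, SE; edgeR adjusted p = 0.920). Defa34 had a log2 fold change of 0.50 ± 0.21 (SE; edgeR adjusted p = 0.921, unadjusted 0.0402), and 0.42 ± 0.21 when summed with Defa5, with which it shares 78.8% of 50-base windows. The groups overlapped for both rows. Without both libraries 3 the log2 fold change was 0.31 for Defa37 and 0.42 for Defa34.

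The division of counts between near-identical rows differed from library to library. Every 50-base window of Defa32 (ENSMUSG00000094818, chr8:21529032-21530012, plus strand) also occurs in another gene, and 86.7% occur in Defa20. Defa32 held 33.7%, 60.9%, 68.0% and 67.3% of the counts of the pair in cKO libraries 1 to 4, against 4.82%, 7.58%, 78.4% and 11.9% in WT libraries 1 to 4. Exact 95% intervals, from counting error only, reached at most 2.73 percentage points from these shares. The share was low in WT libraries 1, 2 and 4 and highest of all in WT library 3, so the groups overlapped.

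Defa32 itself had 131, 551, 269 and 116 CPM in cKO libraries 1 to 4, against 11.5, 12.4, 404 and 4.77 CPM in WT libraries 1 to 4. Its log2 fold change of 1.30 ± 1.46 (SE; edgeR adjusted p = 0.922) ranged from 0.68 to 4.8 when 1 library at a time was left out, the highest without WT library 3. Without both libraries 3 it was 4.79 (edgeR adjusted p = 0.435, unadjusted 0.00305). The pair summed had 390.4, 904, 395 and 172 CPM in cKO and 239, 163, 515 and 40.1 CPM in WT, with a log2 fold change of 0.96 ± 0.78 (SE; edgeR adjusted p = 0.920).

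Defa-rs7 (ENSMUSG00000074442, chr8:21191614-21192549, plus strand, RefSeq name Defa31) has all of its 50-base windows in Defa23, and RefSeq gives the pair identical 250-base promoters. It held 4.42%, 8.80%, 65.3% and 5.22% of the counts of the pair in cKO libraries 1 to 4, against 11.5%, 6.41%, 9.92% and 7.57% in WT libraries 1 to 4. One library, cKO library 3, stood alone. The pair summed had 263, 347, 538 and 208 CPM in cKO and 355, 349.9, 313 and 240.0 CPM in WT (log2 fold change 0.11 ± 0.27, SE; edgeR adjusted p = 0.958). Defa-rs7 alone had a log2 fold change of 1.85 ± 1.21 (SE; edgeR adjusted p = 0.921) and of -0.67 without cKO library 3.

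**Figure D4:**
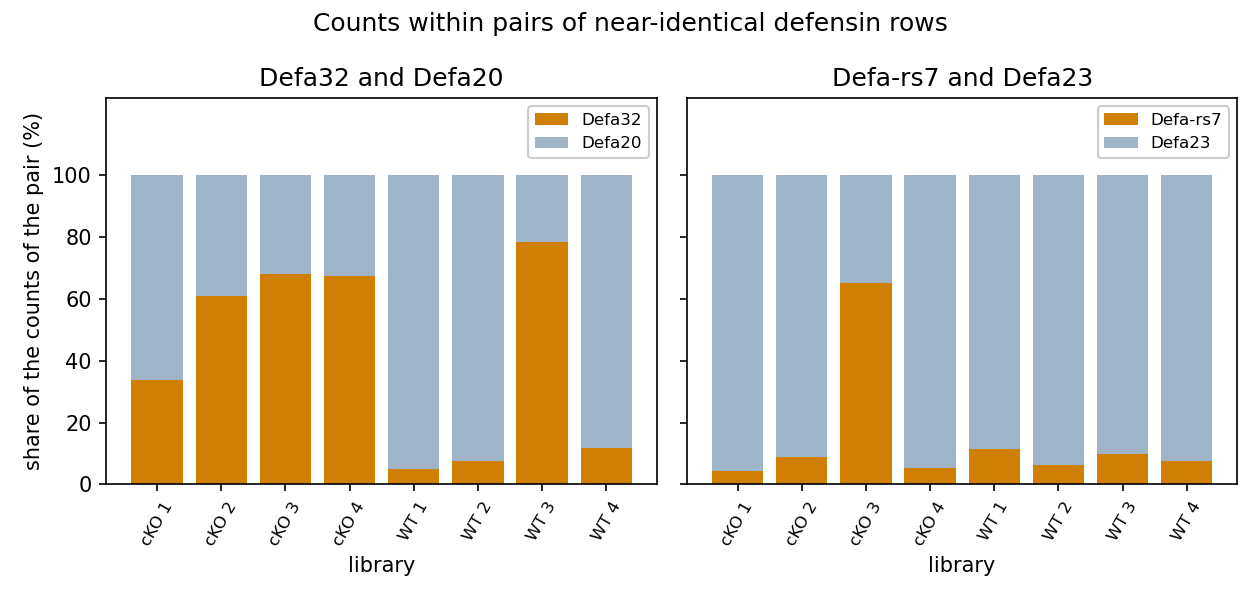
Share of the counts of each pair taken by either row, in percent, in each library (cKO left of WT). Defa32 takes 78.4% of its pair in WT library 3 and Defa-rs7 takes 65.3% of its pair in cKO library 3, against at most 11.9% for Defa32 in the other WT libraries and 8.80% for Defa-rs7 in the other cKO libraries.

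Lyz1 (ENSMUSG00000069515, chr10:117287797-117292868, minus strand) had 5309.5, 8281, 7381 and 5632 CPM in cKO libraries 1 to 4, against 11828, 8772, 8509 and 7197 CPM in WT libraries 1 to 4. The 2 lowest libraries were cKO and the 3 highest were WT, and the groups overlapped between 7197 and 8281 CPM. The means were 6651 ± 1418 CPM in cKO and 9077 ± 1959 CPM in WT (SD, n = 4 each). The log2 fold change was -0.45 ± 0.20 (SE), a fold of 0.733 with a 95% interval of 0.542 to 0.990. In edgeR the p was 0.0439 before adjustment and 0.921 after it, and an exact permutation (two-sided) gave 0.0857. Without WT library 1 the log2 fold change was -0.29.

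Lyz2, the lysozyme of macrophages, shares 16.1% of Lyz1's 50-base windows and 2.06% of its 100-base windows. Lyz2 had only 1.86 to 3.31 CPM in cKO and 1.22 to 2.69 CPM in WT. Summed over 7 macrophage and other myeloid markers, the level was 5.78 to 11.1 CPM in cKO and 3.48 to 5.44 CPM in WT. These myeloid sums were higher in cKO and did not overlap, by a narrow margin, and 3 of the 7 markers were abundant enough to be tested. Among all tested genes, 3.21% had non-overlapping groups. All the sums were far below the Lyz1 level, and any part of myeloid cells in the Lyz1 values was not tested.

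Set against the Defa counts of the same library, Lyz1 had 399, 413, 536 and 531 counts per 1000 Defa counts in cKO libraries 1 to 4, against 753, 607, 663 and 784 in WT libraries 1 to 4. The means were 469.6 ± 74.0 in cKO and 702 ± 81.5 in WT (SD, n = 4 each), and the groups did not overlap. This ratio was chosen after its values were seen and is a description with no test. It was also non-overlapping per 1000 Itln1 counts, at 1543 to 1835 in cKO and 2178 to 2345 in WT. Per 1000 Defa24 counts it overlapped, at 852 to 1294 in cKO and 1210.2 to 1513 in WT. Per 1000 Mmp7 counts it overlapped as well, at 16931 to 33005 in cKO and 30699.6 to 54908 in WT. Of the 6 ratios to the Defa sum that were computed, only that of Lyz1 did not overlap.

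**Figure D5:**
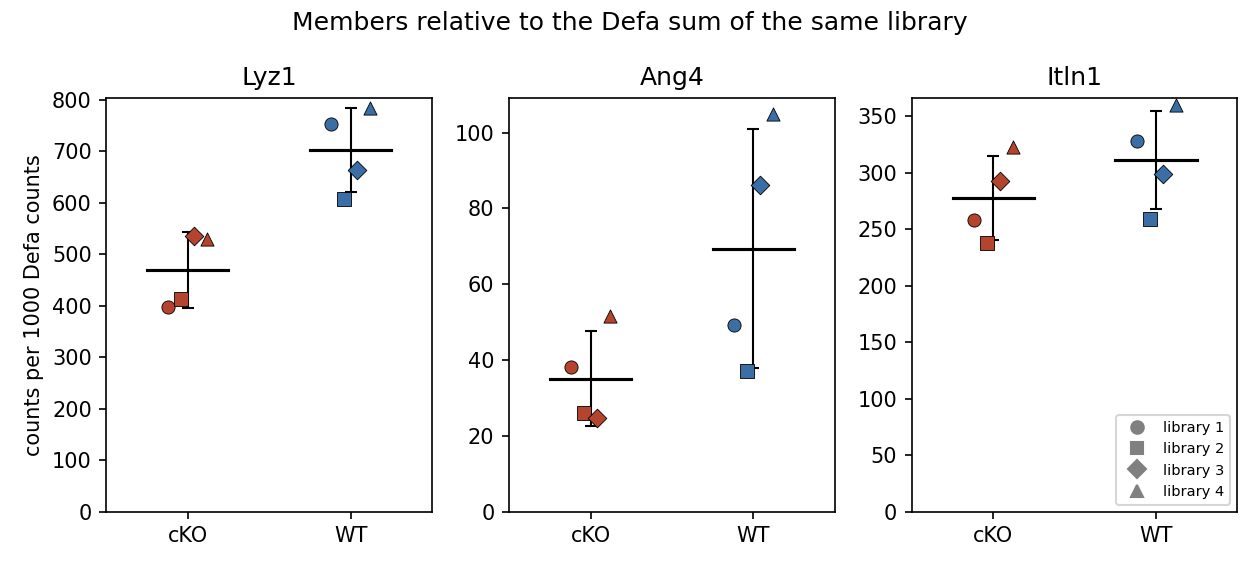
Counts of members per 1000 Defa counts of the same library (points are libraries; cKO left of WT). Lyz1 lies at 399 to 536 in cKO and 607 to 784 in WT, while the other members drawn overlap.

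Ang4 (ENSMUSG00000060615, chr14:51763878-51773590, minus strand) had 509, 523, 340.3 and 548 CPM in cKO libraries 1 to 4, against 776, 537, 1105 and 964 CPM in WT libraries 1 to 4. The groups overlapped only because cKO library 4 lay just above WT library 2. The means were 480.2 ± 94.6 CPM in cKO and 845 ± 246 CPM in WT (SD, n = 4 each), a log2 fold change of -0.82 ± 0.22 (SE) and a fold of 0.568 (95% interval 0.404 to 0.799). In edgeR the p was 0.00386 before adjustment and 0.891 after it, the DESeq2 adjusted p was 0.0880, and an exact permutation (two-sided) gave 0.0571. Its lowest and highest values were both in libraries 3, and without both the log2 fold change was -0.53. With limma voom quality weights it was -0.46.

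Itln1 (ENSMUSG00000038209, chr1:171518122-171535294, minus strand) had 3441, 4778, 4023 and 3426 CPM in cKO libraries 1 to 4, against 5152, 3740.0, 3830.4 and 3304 CPM in WT libraries 1 to 4. The means, 3917 ± 638 CPM in cKO and 4007 ± 797 CPM in WT (SD, n = 4 each), differed by less than the spread of either group. On the log2 scale cKO over WT was -0.033 ± 0.17 (SE; edgeR adjusted p = 0.976; 95% interval -0.41 to 0.35).

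Mmp7 (ENSMUSG00000018623, chr9:7692090-7699585, plus strand), the protease that activates the defensins, had 314, 251, 241 and 227 CPM in cKO libraries 1 to 4, against 331, 286, 155 and 157 CPM in WT libraries 1 to 4. WT libraries 3 and 4 were lowest and WT library 1 was highest, so the cKO values lay inside the WT range. On the log2 scale cKO over WT was 0.15 ± 0.25 (SE; edgeR adjusted p = 0.937; 95% interval -0.40 to 0.70). None of its 50-base windows occurs in another gene.

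Pla2g2a (ENSMUSG00000058908, chr4:138831857-138835186, plus strand) is listed in the gene table as a polymorphic pseudogene, since some inbred mouse strains carry a disrupted copy. It had 71.1, 60.5, 51.5 and 51.5 CPM in cKO libraries 1 to 4, against 57.3, 65.9, 38.1 and 36.4 CPM in WT libraries 1 to 4. On the log2 scale cKO over WT was 0.25 ± 0.20 (SE; edgeR adjusted p = 0.921; 95% interval -0.19 to 0.68), and the groups overlapped.

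The other Paneth cell genes came from a list of 36 names, of which 33 were tested. Of the rest, Ang5 had no count, Defb1 was below the filter and Itlna matched no row. The list includes Lyz2, which is also among the myeloid markers above, so its counts are not about Paneth cells alone. At an edgeR adjusted p under 0.05, 0 of the 33 were called in either direction, against 0.0136% of all genes, and 1 (3.03%) had an unadjusted p under 0.05, against 3.9% of all genes. Point estimates were higher in cKO for 24 (72.7%) and lower for 9, with a median log2 fold change of 0.092, and were higher for 50.5% of all genes, with a median of 0.0022. Among 5 niche signals, which support the neighbouring stem cells, all 5 point estimates were higher: Wnt3 had 9.95 to 14.7 CPM in cKO and 8.50 to 12.0 CPM in WT (log2 fold change 0.14 ± 0.17, SE; edgeR adjusted p = 0.924), and Dll1 0.12 ± 0.11 (edgeR adjusted p = 0.921). Among 6 transcription factors, 4 had higher and 2 lower point estimates. Sox9, needed for Paneth cell formation, had 61.8, 89.7, 88.7 and 78.0 CPM in cKO libraries 1 to 4 and 70.2, 61.3, 64.2 and 68.8 CPM in WT libraries 1 to 4 (0.27 ± 0.13, SE; edgeR adjusted p = 0.921, unadjusted 0.0597). Atoh1, which sets the secretory fate, had 25.9 to 27.2 CPM in cKO and 26.0 to 27.9 CPM in WT.

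Of the 4 receptors 3 had higher point estimates, with Ephb3, a receptor that positions Paneth cells at the crypt base, at 33.8 to 47.9 CPM in cKO and 27.6 to 40.2 CPM in WT (log2 fold change 0.28 ± 0.15, SE; edgeR adjusted p = 0.921). Among 11 tested granule and secreted proteins, 6 had higher and 5 lower point estimates. The mucosal pentraxin Mptx1 was the one with an unadjusted p under 0.05: it had 1.78, 3.19, 1.12 and 2.89 CPM in cKO libraries 1 to 4 and 3.29, 2.49, 8.4 and 13.2 CPM in WT libraries 1 to 4 (-1.61 ± 0.55, SE; edgeR adjusted p = 0.921, unadjusted 0.0155). Its log2 fold change was -1.07 without WT library 4, -1.27 without both libraries 3 and -0.60 with limma voom quality weights. Its relative Mptx2 had 1063, 930.4, 573 and 780.0 CPM in cKO and 992, 778, 957 and 721 CPM in WT (-0.043 ± 0.19, SE; edgeR adjusted p = 0.974). Of the 7 genes listed under granule function, 6 had higher point estimates. Slc30a2, a zinc transporter of the granules, had 45.9 to 51.5 CPM in cKO and 35.2 to 50.2 CPM in WT (0.26 ± 0.12, SE, edgeR adjusted p = 0.921). The 6 include Cd74, the MHC class II invariant chain, so this count is not about granules alone. Cd74 had 33.7 to 593 CPM in cKO and 67.0 to 357 CPM in WT, a log2 fold change of 0.24 ± 1.07 (SE).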

How the data were processed

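Per the labels and design text, RNA from the epithelial cells was sequenced on an Illumina NovaSeq instrument and processed with Hisat2 and Stringtie; versions, build, library kit, strand and the treatment of multiply matching reads were not given in the sources used here. In the deposited tables the authors gave unnormalized whole-number read counts, gene lengths and FPKM for the same genes. Coordinates of all 44 members were identical in GENCODE M21 (GRCm38).

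Counts were tested with edgeR 4.0.16 (R 4.3.3; TMM, default low-count filter, robust quasi-likelihood F-test, genotype only) and adjusted by Benjamini-Hochberg over 14701 genes at 0.05. The Defa sum replaced its rows in a second fit. CPM used TMM-scaled totals. Intervals on fold changes are 95%. DESeq2 1.42.0, limma 3.58.1 and exact permutation over libraries were alternatives. Transcript windows came from GENCODE M21 and promoters from RefSeq (GRCm38.p6).

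The members and lists were chosen with earlier results of these data known. Every library's values are given for the 5 named products, the Defa sum, the 6 Defa rows with the largest mean FPKM, and members called or non-overlapping; Defa32, Defa-rs7, Defa34 and Defa37 were named after their values were seen. In data simulated for 14447 genes, edgeR called 23.1% of genes changed 1.5-fold and 59.1% changed 2-fold, and 8.06% of its calls were false. Counts there followed the trend of dispersion with abundance and not each gene's own spread. These rates may therefore be too high for defensin rows that vary more between libraries. Every pair of libraries differed by more than sampling noise (lowest chi-square per degree of freedom 9.84).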

Additional observations from a re-analysis of the deposited data

Results flagged for a closer look

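In 72 groups of 4 libraries, the gap between an extreme library and its neighbour, as a share of the range, passed Dixon's 95% limit in 6; chance gives about 1 in 20. Defa32 was high in WT library 3 (404 CPM, others 4.77 to 12.4; 0.981), and Defa-rs7 in cKO library 3 (351 CPM, others 10.8 to 30.5; 0.942). Their near-identical partners share these rows' sequence. Defa30 was high in cKO library 2 (3741 CPM, others 2589 to 2697; 0.907), as was Defa-ps16 (4.14 CPM, others 1.60 to 1.91; 0.879). Defa26 was high in WT library 1 (199 CPM, others 138 to 143; 0.914). Defa28 was low in WT library 2 (0.663 CPM, others 0.917 to 0.954; 0.872).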

How the results depend on the processing

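The Defa sum kept its direction in 20 of 21 alternatives. Without cKO library 2 it was -0.045, the range leaving out 1 library being -0.045 to 0.27. Over all alternatives the adjusted p, by edgeR, DESeq2 or limma, ran from 0.814 to 0.9996, and both ends were edgeR values. Members called higher were 0, and 1 (Defa35, 1.14, adjusted p = 0.0153) with DESeq2; members called lower were 0 throughout. All genes called higher, 1 in the reported fit, were 6 without a filter, 0 to 2 leaving out 1 library, 3 without both libraries 3, 21 with DESeq2, 6 with voom quality weights, and 0, 2 and 0 in the limma fits on log2(FPKM + 0.1) filtered, unfiltered and log2(FPKM + 1). All genes called lower, 1 in the reported fit, were 4 without a filter, 0 to 1 leaving out 1 library, 20 with DESeq2, 2 with voom weights and 0 in each limma FPKM fit. Whether the replicate numbers pair the libraries was not settled. Correlations of deviations ran from -0.11 to 0.15 between same-numbered libraries and from -0.195 to 0.148 between the others. With the replicate block 0 genes were called higher and 0 lower, and the Defa sum was 0.14. For 20 named genes, 364 of 380 alternative values kept direction and call, 15 reversed and 1 (Defa35) became a call. Leaving out 1 library, Defa24 ranged from -0.19 to 0.15, Defa30 from -0.035 to 0.22, Defa22 from -0.14 to 0.38, Defa17 from -0.16 to 0.43, Defa-rs7 from -0.67 to 2.23 and Itln1 from -0.13 to 0.12. With voom weights Defa24 was -0.093, Defa-rs7 -0.56 and Mmp7 -0.052, and Defa-rs7 was -0.62 without both libraries 3. The cause was not tested. The planned sum over rows whose description names an alpha defensin found none; rows that RefSeq names Defa were used after seeing the data, as were the sums of near-identical pairs. With 4 libraries a group, the reported intervals allow sizeable differences either way.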
